A study of Mus musculus with 5 samples.

Results

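The peaks described here are HSF1 binding regions that lie deep inside long genes. A peak was taken when its summit fell inside a protein-coding gene of 200 kb or longer and more than 1000 bp from the end of any protein-coding gene. This rule found 1354 of the 6962 peaks of the series, 621 of 3316 in control and 733 of 3646 after NMDA. HSF1-bound DNA was collected by immunoprecipitation and sequenced (ChIP-seq) from wild-type primary neurons from the cortex of embryonic day 16 Swiss-Webster mice, on day 13 of culture. The control group (2 ChIP libraries) was untreated, and the NMDA group (2 ChIP libraries) received 50 µM NMDA, a glutamate receptor agonist, for 10 min and was collected after 20 min without it. The input (1 library, chromatin taken before immunoprecipitation) came from untreated neurons and served both groups. Each condition has 1 deposited peak list that combines its libraries. Replicate errors and a test between conditions are therefore missing, and the intervals given are 95% intervals of counting error alone. Library depth is unknown, and gene expression was not measured, so the cell type was not checked against its markers.

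HSF1 is a transcription factor that is held inactive in resting cells and, under protein-folding stress, forms trimers that bind inverted repeats of the letters GAA, the heat shock elements, mostly near the starts of chaperone genes. Neurons use an unusual number of very long genes, many of which encode synaptic adhesion proteins, scaffolds, receptors and channels. Transcription through such genes takes hours and is known to need topoisomerases, including TOP2B, the enzyme named in the title of the series. Long genes also tend to have several starts, so a site deep inside the gene can still lie at the start of a shorter transcript.

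Sequence could be read for the few peaks that overlapped a start in the promoter table of GRCm38.p6 (RefSeq), which gives 250 bases before and 50 bases after each start. This was so for 8 control and 3 NMDA peaks. Windows for 5 of these peaks are shown because they place a peak at a start inside the gene body. Capitals mark the bases under the peak, and each window reads 5′ to 3′ on the strand of its own gene. The Schip1 window (chr3:68572118-68572417, plus strand) lies at an internal start of Schip1, whose protein binds the tumour suppressor merlin, and holds the summit of a 2.00-fold control peak. The Galnt14 window (chr17:73710402-73710701, minus strand) belongs to a gene for an enzyme of mucin-type glycosylation. It holds the summit of a 2.10-fold control peak, and this summit is 1.70 kb inside the gene's 5′ end. The Cacnb4 window (chr2:52558562-52558861, minus strand) is that of an internal start of a calcium channel β subunit gene, with a 3.29-fold control peak whose summit is 87 bp downstream of the start. The Nlgn1 window (chr3:26153937-26154236, minus strand) is that of an internal start of the neuroligin 1 gene, beside a site found in both lists. The Gm39671 window (chr11:29809154-29809453, plus strand) belongs to a long noncoding RNA gene inside Eml6, a gene for a microtubule-associated protein, and is overlapped by a 7.97-fold NMDA peak. The start of this window is 319 bp from the summit. The peak also overlaps windows of Gm39671 that are not shown, with starts 201 and 220 bp from the summit.
Schip1: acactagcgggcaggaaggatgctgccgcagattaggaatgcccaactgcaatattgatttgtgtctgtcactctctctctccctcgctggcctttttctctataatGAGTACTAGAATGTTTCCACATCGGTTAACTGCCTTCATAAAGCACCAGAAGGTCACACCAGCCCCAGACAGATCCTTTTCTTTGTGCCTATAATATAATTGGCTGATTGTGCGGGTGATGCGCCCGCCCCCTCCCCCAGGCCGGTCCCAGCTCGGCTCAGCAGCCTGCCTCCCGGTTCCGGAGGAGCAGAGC
Galnt14: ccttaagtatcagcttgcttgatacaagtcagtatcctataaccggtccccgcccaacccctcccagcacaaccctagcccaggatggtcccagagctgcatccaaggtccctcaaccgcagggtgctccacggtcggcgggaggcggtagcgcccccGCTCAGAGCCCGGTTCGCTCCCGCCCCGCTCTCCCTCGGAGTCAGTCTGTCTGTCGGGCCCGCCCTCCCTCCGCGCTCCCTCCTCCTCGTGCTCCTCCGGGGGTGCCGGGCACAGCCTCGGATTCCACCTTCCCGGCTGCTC
Cacnb4: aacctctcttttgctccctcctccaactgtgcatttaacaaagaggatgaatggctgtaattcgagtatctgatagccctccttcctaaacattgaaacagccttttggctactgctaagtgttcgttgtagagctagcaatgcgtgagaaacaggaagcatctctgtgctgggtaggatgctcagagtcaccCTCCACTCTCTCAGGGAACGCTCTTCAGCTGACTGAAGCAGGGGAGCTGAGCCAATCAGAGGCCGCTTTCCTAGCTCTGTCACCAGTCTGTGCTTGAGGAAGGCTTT
Nlgn1: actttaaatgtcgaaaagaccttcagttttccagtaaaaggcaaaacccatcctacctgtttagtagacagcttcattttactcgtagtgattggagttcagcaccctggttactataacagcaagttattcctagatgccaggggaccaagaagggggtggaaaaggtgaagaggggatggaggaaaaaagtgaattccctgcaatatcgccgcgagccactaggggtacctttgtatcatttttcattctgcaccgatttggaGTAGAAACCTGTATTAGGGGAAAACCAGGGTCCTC
Gm39671: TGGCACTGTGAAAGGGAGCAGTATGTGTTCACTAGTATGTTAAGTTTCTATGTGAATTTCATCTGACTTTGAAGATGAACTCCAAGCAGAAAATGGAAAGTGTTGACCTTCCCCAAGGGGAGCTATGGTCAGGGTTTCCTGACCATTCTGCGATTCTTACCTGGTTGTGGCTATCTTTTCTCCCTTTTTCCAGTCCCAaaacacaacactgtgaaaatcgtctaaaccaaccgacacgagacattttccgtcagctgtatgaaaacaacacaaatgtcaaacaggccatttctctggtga
The letters GAANNTTC or TTCNNGAA, each of which is its own reverse complement, were searched as the core of a heat shock element. They were found in 0 of these windows. Among all 13 windows overlapped by a peak inside a long gene, 2 held a match (those of Gm30970 inside Vwa8 and of Sgms1), in both cases outside the peak. Of all 32817 promoter windows of the same length, 15.1% held 1 or both. Among the 13, only the Schip1 and Galnt14 windows held the summit of their peak, and the overlap was as small as 2 bp (Abr). The search therefore cannot tell whether these letters lie at the summits of these peaks. The sequence under the other peaks was not used here.

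Long genes were hit far more often than other genes, and the longest ones most often. In the control list 417 of 990 long genes (42.1%, interval 39.0 to 45.3%) held a peak, and in the NMDA list 443 (44.7%, 41.6 to 47.9%). Over all 21631 protein-coding genes the same count was 5.49% in control and 5.55% after NMDA, and for genes under 200 kb it was 3.73% and 3.67%. Of genes of 200 to 400 kb, 31.8% were hit in control and 34.0% after NMDA. Of those of 400 to 800 kb these shares were 53.1% and 58.7%, and of the 98 genes of 800 kb or longer they were 80.6% and 78.6%. The control count includes 10 overlapping genes at the protocadherin α cluster that were hit together by the same 2 peaks. These are Pcdha1 to Pcdha7 and the longer predicted genes Gm37013, Gm38666 and Gm38667. They also enter the counts of genes by peak number and by difference between the lists given below. Counting each peak for 1 gene alone left 407 control and 441 NMDA genes.

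Per Mb of sequence the length classes of long genes had similar values in the control list and rising values in the NMDA list. Peak density was 1.47 per Mb (1.30 to 1.67) in control genes of 200 to 400 kb, 1.48 (1.28 to 1.70) at 400 to 800 kb, and 1.52 (1.30 to 1.76) at 800 kb or longer. In the NMDA list the same classes had 1.65 (1.46 to 1.85), 1.75 (1.54 to 1.99) and 1.93 (1.68 to 2.20) peaks per Mb. The intervals of the classes overlapped in each list. The higher share of hit genes thus went with a longer target. In control there was no clear change in density, and whether the NMDA density rises with length was not tested. All long genes together covered 417 Mb, 16.04% of the span between the outermost genes of the chromosomes, and took 18.7% of control peaks (17.4 to 20.1%) and 20.1% of NMDA peaks (18.8 to 21.4%).

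Against the rest of the genome, the bodies of long genes were denser in peaks than the sequence between genes and sparser than gene ends. Between genes the density was 0.897 per Mb (0.850 to 0.946) in control and 1.11 (1.06 to 1.17) after NMDA. Long genes had 1.49 (1.37 to 1.61) and 1.76 (1.63 to 1.89), which is 1.66 and 1.58 times as much. Shorter gene bodies had 1.45 per Mb (1.35 to 1.55) in the control list, an interval that overlapped that of long genes, and 1.47 (1.38 to 1.58) in the NMDA list, an interval that did not. Among shorter genes the NMDA density was 1.14 (1.00 to 1.30) under 50 kb, 1.60 (1.41 to 1.80) from 50 to 100 kb and 1.73 (1.55 to 1.93) from 100 to 200 kb, and the intervals of the last 2 classes overlapped that of long genes. At gene ends the density was 6.25 per Mb (5.71 to 6.83) and 4.67 (4.20 to 5.17). Chromosome X had 3 control and 5 NMDA peaks in all, and its 45 long genes, among them Dmd, Il1rapl1 and Il1rapl2, held 1 control and 0 NMDA peaks over 19.9 Mb (up to 0.185 per Mb in the NMDA list). On the autosomes alone, the density was 1.56 against 1.51 per Mb in control and 1.85 against 1.54 after NMDA for long and shorter genes. Between genes on the autosomes it was 0.975 and 1.21. All bases were counted as sequence, with no allowance for gaps or for stretches where reads cannot be placed.

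**Figure D1:**
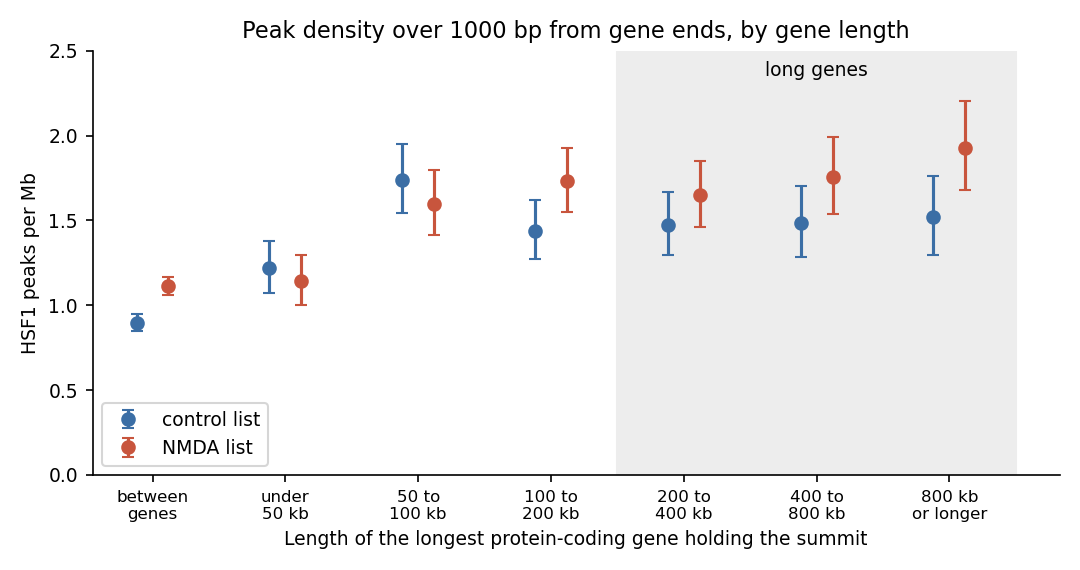
HSF1 peaks per Mb of sequence more than 1000 bp from gene ends, by length of the longest protein-coding gene that holds the summit, for the control list (blue) and the NMDA list (red), with exact Poisson 95% intervals as bars. Within the shaded long gene classes the control values sit between 1.47 and 1.52 and the NMDA values between 1.65 and 1.93.

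Most long genes that were hit held 1 peak. In the control list 274 genes held 1 peak, 100 held 2 and 43 held 3 or more. In the NMDA list 284 genes held 1 peak, 91 held 2 and 68 held 3 or more. Genes with 3 or more peaks carried 26.1% of the peak placements in long genes in control and 36.7% after NMDA. Of these genes 21 were common to both lists, 48.8% of the 43 and 30.9% of the 68. They include the adhesion and guidance genes Nlgn1, Cadm2, Cntn5, Lsamp, Tenm2 and Robo2, the scaffold gene Dlg2, the phosphodiesterase gene Pde4b and the transcription factor genes Bach2, Npas3 and Sox6. Across the 990 genes, peak count and gene length had a Spearman correlation of 0.34 in control and 0.38 after NMDA, given as a description.

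**Figure D2:**
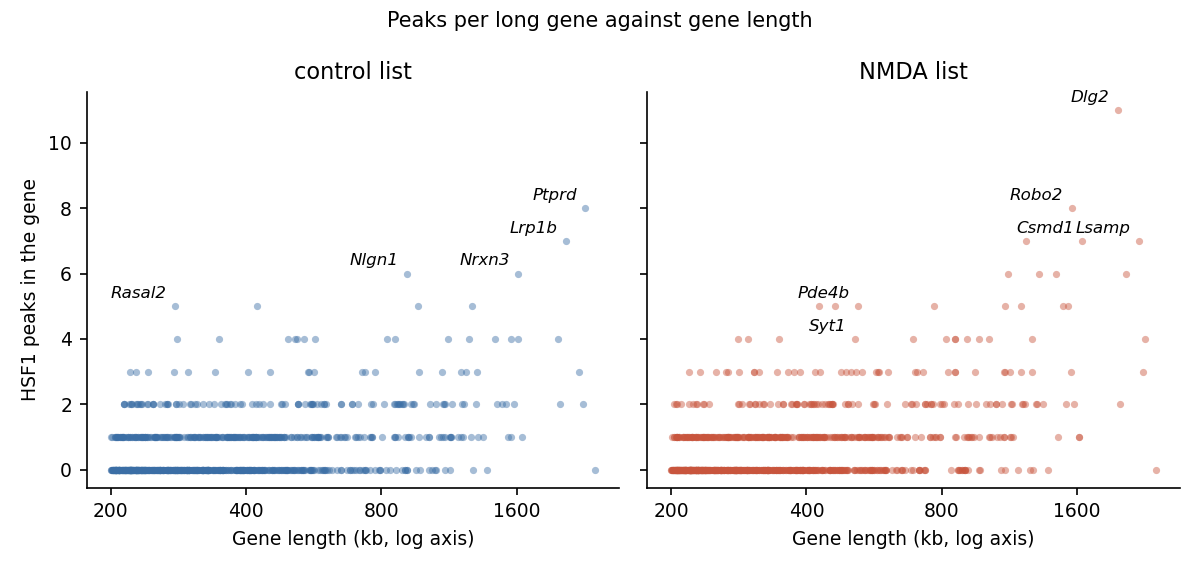
HSF1 peaks in each of the 990 long genes against gene length (log axis), for the control list (left) and the NMDA list (right), 1 point per gene. Most genes hold 0 or 1 peak, and the highest counts, 8 in Ptprd and 11 in Dlg2, belong to genes of about 2 Mb.

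Dlg2 had the most peaks. It encodes PSD-93, a scaffold that anchors NMDA receptors at the synapse, and spans 1973 kb of chromosome 7 (90476188 to 92449246). The control list had 4 peaks there, of 2.28-, 3.18-, 2.47- and 2.82-fold enrichment, at 184, 574, 642 and 1460 kb from the 5′ end. The NMDA list had 11, spread from 83.1 to 1412 kb, of which 9 had 2.04- to 3.44-fold enrichment. The other 2 were a 6.99-fold peak at 91442579 to 91443177, 967 kb into the gene, and a 6.02-fold peak at 91247890 to 91248321, 772 kb into it. The density was 2.03 peaks per Mb (0.553 to 5.20) in control and 5.58 (2.79 to 9.99) after NMDA, and these intervals overlap.

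The other genes with many peaks have varied roles. The low-density lipoprotein receptor family gene Lrp1b had 7 control and 6 NMDA peaks. Ptprd, a receptor phosphatase of the presynaptic side, had 8 and 4, and the axon guidance receptor gene Robo2 had 4 and 8. Dab1, which acts downstream of reelin in neuronal migration, and Gpc5, a glypican gene, had 4 and 6 each. Lsamp and Tenm2, which encode adhesion proteins, had 3 and 7 each, and Nlgn1 had 6 and 4. Cadm2 and Cntn5, also adhesion genes, had 5 and 4 each. The shortest of these genes have a high density because they were chosen by count. Gpm6a, a neuronal membrane glycoprotein gene of 281 kb, had 14.3 peaks per Mb in each list (4 peaks, 3.90 to 36.6), and Bach2, a gene for a transcriptional repressor of 348 kb, had 11.6 (4 peaks, 3.15 to 29.6). Pde4b, which degrades cyclic AMP, had 7.72 (4 peaks) and 9.65 (5 peaks) per Mb over 520 kb.

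Of the 619 long genes with a peak in either list, 241 had one in both, which is 57.8% of the control genes and 54.4% of the NMDA genes. These shares were 41.4% and 38.7% for genes of 200 to 400 kb, and 86.1% and 88.3% for genes of 800 kb or longer, so they moved with gene length. The lists share the input library, and how much of the overlap length alone would give was not tested. The same shares were not counted over all protein-coding genes. With genes of 100 kb or longer, 301 were hit in both lists, of 662 in control and 727 after NMDA. In 276 genes the NMDA list had more peaks, in 232 the control list had more, and in 111 the numbers were equal. A difference of 3 or more peaks was seen in 28 genes towards NMDA and in 11 towards control. The NMDA list was also longer in all, with 3646 peaks against 3316, and these differences were not counted for shorter genes. After Dlg2 the largest excesses in the NMDA list were those of Csmd1 (1 control and 7 NMDA peaks), a complement-related membrane protein gene, and Lrrc4c (1 and 6), which encodes the netrin-G ligand NGL-1. Syt1, the gene of the calcium sensor of vesicle release, had 0 and 4, and the diacylglycerol kinase gene Dgki had 1 and 5. In the other direction, Rasal2, a gene for a Ras GTPase-activating protein, had 5 control and 0 NMDA peaks, and the neurexin gene Nrxn3 had 6 and 1. Lingo2, a gene for a leucine-rich repeat protein, had 4 and 0, Ptprd differed by the same number, and Cdh2, the gene of N-cadherin, had 3 and 0. Counts this small have wide intervals, for example 1.37 to 8.11 against 0.0157 to 3.46 peaks per Mb in Nrxn3.

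**Figure D3:**
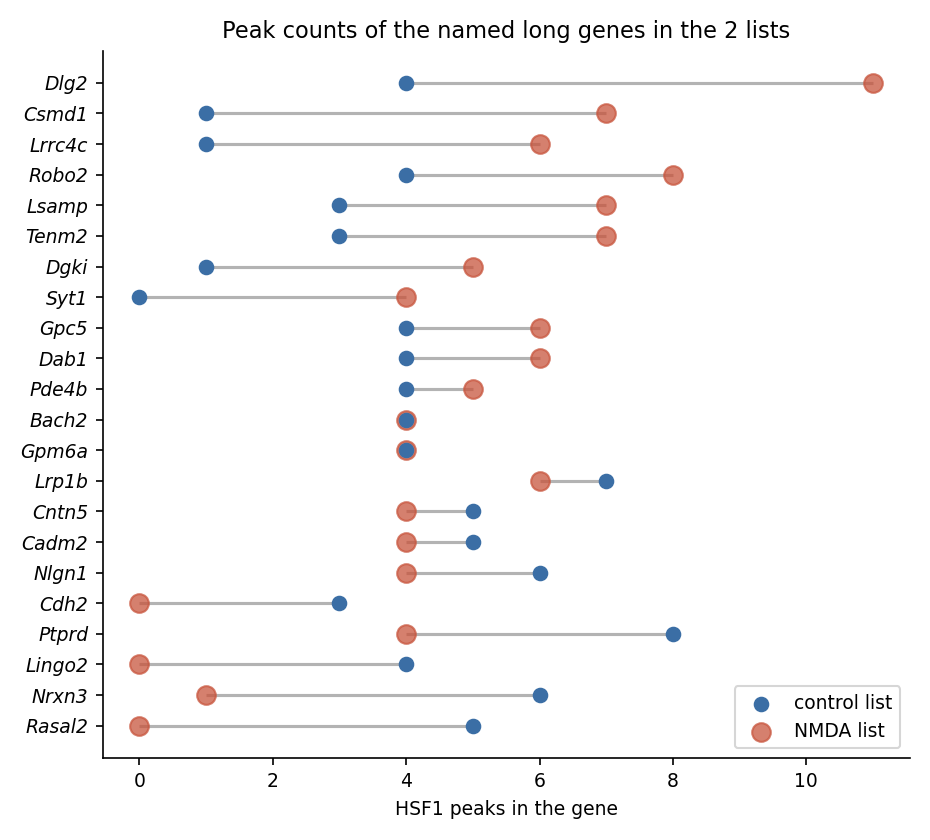
Number of HSF1 peaks in the control list (small blue points) and the NMDA list (large red points) for the 15 long genes with the most peaks and the 5 with the largest excess in each direction (ties by shorter gene), 1 gene per line. The line for Dlg2 runs from 4 to 11 peaks and that for Rasal2 from 5 to 0, while Bach2 and Gpm6a have 4 in each list.

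Most peaks of at least 4-fold enrichment inside long genes were in the NMDA list, as were most such peaks anywhere in the genome. The fold values are those of the authors' peak caller, each scaled within its list. Library depth is unknown, so the same 4-fold cut in both lists does not compare the strength of binding between conditions. A value of at least 4-fold was listed for 1 of the 621 control peaks (0.161%, 0.00408 to 0.894%) and for 35 of the 733 NMDA peaks (4.77%, 3.35 to 6.58%), where over all peaks of the lists these shares were 0.513% and 4.99%. The share among the NMDA members was close to that of their whole list. The median fold was 2.61 (2.57 to 2.67) inside long genes in the control list, against 2.61 in shorter gene bodies and 2.65 between genes. In the NMDA list it was 2.70 (2.69 to 2.80), against 2.69 in both of these. A q below 0.05 was listed for 68.0% of the control members and 77.5% of the NMDA members, against 68.9% and 76.3% of all peaks. Fold and gene length had a Spearman correlation of -0.03 in control and -0.04 after NMDA, over peaks that share their libraries.

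The control peak above 4-fold lay in Prkdc, which encodes the catalytic subunit of the DNA-dependent protein kinase of break repair. Its enrichment was 10.2-fold, at chromosome 16, 15648634 to 15649048, 11.4 kb from the nearest gene end, and the NMDA list had no peak inside this gene of 205 kb. The next control peaks were much lower and close together. They lay in Dgkb, a diacylglycerol kinase gene (3.62-fold), in Asph and Gramd1b (3.59-fold each), in the splicing factor gene Rbfox2 (3.52-fold), and in Cadps2, Mylk, Ctnna3 and Rere (3.49-fold each). Dnah8 and Spag16 followed at 3.42-fold each.

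The highest NMDA peaks were those inside Slc35f1, a solute carrier family gene (11.5-fold, chromosome 10, 52982737 to 52983224), and Ksr2, a scaffold gene of the MAP kinase pathway (10.8-fold, chromosome 5, 117607467 to 117608179). Auts2, a gene for a regulator of transcription in developing neurons, held an 8.28-fold peak (chromosome 5, 132113384 to 132114024). Eml6 held 2 strong peaks, of 7.97-fold at chromosome 11, 29808812 to 29809351, and of 5.45-fold at 29924391 to 29924756. Sorcs2, which encodes a sorting receptor of the VPS10 family, had a 7.96-fold peak (chromosome 5, 36387875 to 36388354). Slc24a2, a sodium, calcium and potassium exchanger gene, had one of 6.88-fold (chromosome 4, 87017483 to 87018083). Clstn2, the calsyntenin 2 gene, had one of 6.24-fold (chromosome 9, 98011456 to 98012153), and the adhesion gene Chl1 one of 5.95-fold (chromosome 6, 103683030 to 103683339). Further genes with a peak of at least 4-fold include the channel genes Kcnab1, Cacnb2, Dpp6, Kcnh1 and Ryr2, the guidance and migration genes Sema6d and Dab1, and Rbfox1, Zfp536 and Plcb1.

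The 35 strong NMDA peaks lay in 33 genes and tended to be wide. Their median width was 416 bp against 300 bp for the other NMDA members. In 28 of them the gene's strand was known, and their median position was 54.0% of the way from the 5′ to the 3′ end, 215 kb into the gene. Of the 35, 3 lay within 1000 bp of a start in the promoter table, against 8 of the 698 other NMDA members. The 3 were in Eml6, Ulk4 and Stard13, and in each the start was that of a long noncoding RNA. The 698 include the 26 NMDA members on chromosome 18, which the table does not cover. The gene was in the table, and its strand known, for 548 of the 698 and 28 of the 35. The 2 groups were therefore not covered alike.

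**Figure D4:**
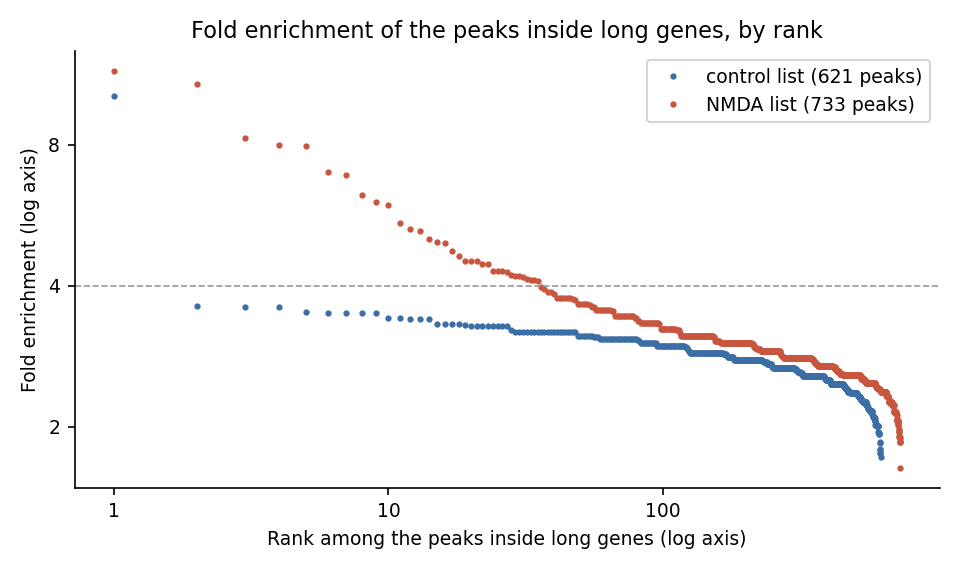
Fold enrichment (log axis) of the 621 control peaks (blue) and 733 NMDA peaks (red) inside long genes, ordered from highest to lowest within each list (rank on a log axis), with a dashed line at 4-fold. The control curve drops from 10.2-fold in Prkdc to 3.62-fold at the next peak, and 35 NMDA peaks lie above the line.

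Few sites inside long genes were found in both lists. Of the control members 9 (1.45%, 0.665 to 2.73%) overlapped an NMDA peak by at least 1 bp, and of the NMDA members 9 (1.23%, 0.563 to 2.32%) overlapped a control peak. Over all peaks these shares were 2.90% and 2.61%. Between genes they were 2.03% (1.36 to 2.93%) and 1.64% (1.09 to 2.36%). In shorter gene bodies they were 3.40% (2.27 to 4.87%) and 3.10% (2.03 to 4.51%). All of these intervals overlap those of the long genes. At gene ends they were 5.92% (4.00 to 8.39%) and 8.20% (5.598 to 11.5%), intervals that do not overlap those of the long genes. In genes hit in both lists, the nearest peak of the other list was a median of 97.0 kb away from a control peak and 108 kb away from an NMDA peak.

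The 9 common sites had modest enrichment in both lists. The highest control value was that of Tiam1, a gene for an activator of the GTPase Rac in dendritic spines, with 3.29-fold in control and 3.55-fold after NMDA, and the summits were 1.77 and 1.39 kb from the 5′ end of the gene. Cntn6 and Cntn5, which encode contactin adhesion proteins, had 3.18- and 3.12-fold and 2.57- and 3.66-fold, the last being the highest NMDA value of the 9. Mmp16, a membrane metalloprotease gene, had 2.77- and 3.33-fold. Dlg1, which encodes the scaffold SAP97, had 2.74- and 2.90-fold, and Dtnb, the β-dystrobrevin gene, had 2.88- and 2.58-fold. The ubiquitin ligase gene Marchf1 had 2.51- and 2.58-fold, and Zbtb20, a transcription factor gene, had 1.94- and 2.42-fold. The Nlgn1 site had 2.47- and 2.62-fold, and its summits were 101 bp (control) and 346 bp (NMDA) from the internal start whose window is shown above. The Dlg1 summits were 369 and 733 bp from an internal start of Dlg1.

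Peaks were found along the whole gene, with the highest density just inside the 5′ end. Strand could be read from the promoter table for 744 of the 990 long genes, which held 484 control and 576 NMDA members. The median position was 0.498 of the gene length from the 5′ end (0.446 to 0.549) in control and 0.483 (0.429 to 0.519) after NMDA. With each gene cut into 10 equal pieces, the control density ran from 1.18 per Mb (0.834 to 1.62) in piece 3 from the 5′ end to 1.86 (1.42 to 2.40) in piece 7, and these intervals overlap. The NMDA density was highest in piece 1, at 2.45 per Mb (1.93 to 3.06), lowest in piece 2, at 1.43 (1.05 to 1.90), and 2.26 (1.78 to 2.85) in piece 3. From 1 to 10 kb inside the 5′ end the density was 3.75 per Mb (25 peaks, 2.43 to 5.54) in control and 3.45 (23 peaks, 2.19 to 5.18) after NMDA. From 1 to 10 kb inside the 3′ end it was 1.05 per Mb (7 peaks, 0.422 to 2.16) in each list, and these intervals do not overlap those of the 5′ end. Leaving out peaks and sequence within 1000 bp of any tabulated start gave 3.30 (21 peaks, 2.04 to 5.04) and 3.61 (23 peaks, 2.29 to 5.42) at the 5′ end, and the control interval then overlaps that of the 3′ end. With peaks of q below 0.05 alone, the 5′ density was 2.70 per Mb (1.60 to 4.27) in each list. The 3′ density was then 0.7496 (0.243 to 1.75) in control and 0.899 (0.330 to 1.96) after NMDA, so the intervals overlap in both lists. From 10 kb inwards the control density lay between 1.26 and 1.59 per Mb, and the NMDA density between 1.60 and 2.16, with its highest value over 500 kb from the 5′ end (1.80 to 2.56).

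**Figure D5:**
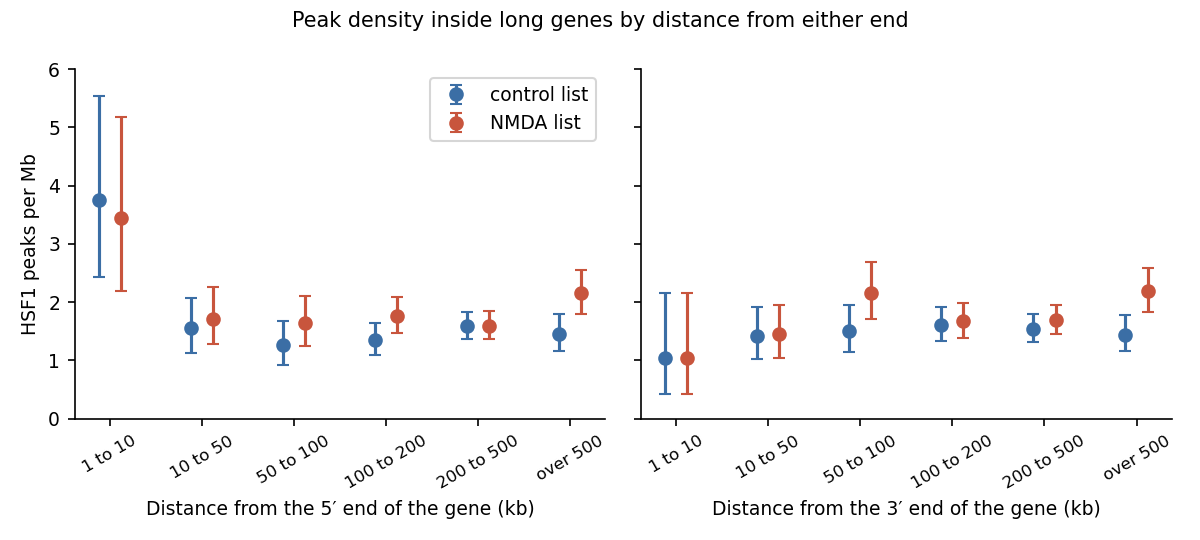
HSF1 peaks per Mb inside long genes of known strand, by distance from the 5′ end (left) and from the 3′ end (right) in kb, for the control list (blue) and the NMDA list (red), with exact Poisson 95% intervals as bars. The stretch of 1 to 10 kb from the 5′ end has 3.75 and 3.45 peaks per Mb, and the same stretch at the 3′ end has 1.05 in each list.

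The 25 control peaks lay in 23 genes and the 23 NMDA peaks in 22 genes, with 3 genes in common, Tiam1, Hivep3 and Sema5a. In the NMDA list Lrrc4c held 2 such peaks, of 3.75-fold at 7.88 kb and of 3.12-fold at 2.92 kb from the 5′ end. Rnf220, a ubiquitin ligase gene, had a 3.44-fold peak at 3.96 kb, and App, the amyloid precursor protein gene, a 2.22-fold peak at 3.505 kb. In the control list Ptprk, a receptor phosphatase gene, had a 3.08-fold peak at 1.71 kb, and Gria4, an AMPA receptor subunit gene, a 2.96-fold peak at 2.53 kb. The threshold of 1000 bp runs through this region. Within long genes 34 control and 16 NMDA peaks lay within 1000 bp of a gene end, and 23 and 10 lay from 1000 to 2000 bp away. The median fold of the control peaks was 2.67 in both stretches. That of the NMDA peaks was 2.67 within 1000 bp and 2.91 from 1000 to 2000 bp.

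Peaks were denser around tabulated starts that lie inside long genes. The promoter table does not cover chromosome 18, so 599 control and 707 NMDA members entered this count. It also lacks other long genes. With chromosome 18 included, 137 control and 157 NMDA members had a longest gene without a start in the table. Off chromosome 18 these counted as the rest of the sequence, unless a start of another gene was near. The contrast therefore covers tabulated starts alone. Within 1000 bp of such a start, of any kind of gene, the control list had 10.0 peaks per Mb (25 peaks, 6.48 to 14.8), against 1.43 (1.32 to 1.56) in the rest of the long gene sequence. The NMDA list had 4.40 (11 peaks, 2.20 to 7.88), against 1.74 (1.61 to 1.87). These stretches make up 2.498 Mb and hold 4.17% of the control members and 1.56% of the NMDA members counted. Of the 25 control peaks 19 were at a tabulated start of the longest gene they lie in, and 1 was at the Schip1 start inside the overlapping gene Iqschfp. The 19 include those in Cacnb4, Nlgn1, Dlg1, Frmd4a, Anks1b, Dock9, Prkg1 and Galnt14. They also include peaks in Cdh20 and Tanc2, 1.00 and 1.09 kb from the 5′ end and 821 and 564 bp from the start. Those starts lie close to the 5′ end, so the count and density near starts hold some signal from the gene's own 5′ end. Of the 11 NMDA peaks 5 were at a start of their longest gene, in Nlgn1, Dlg1 (2 peaks), Pde4b and Slc25a21. The other 6 were at starts of long noncoding RNA genes. The median fold was 2.57 near a start and 2.61 elsewhere in the control list, and 3.01 and 2.69 in the NMDA list.

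Most neighbouring peaks in a gene were far apart, and some were close. Neighbouring summits in the same gene and list were a median of 108 kb apart in control and 113 kb after NMDA. Of 224 control and 293 NMDA neighbour pairs, 21 in each list were under 10 kb. How many close pairs the peak density alone would give was not tested. Nlgn1 held 3 control peaks in a row, 1.27 and 1.28 kb apart, the nearest of them 101 bp from the internal start. In the NMDA list the closest pair was in Ust, a sulfotransferase gene (0.554 kb), and Rbfox1, which encodes a neuronal splicing factor, held 2 separate pairs, with spacings of 2.82 and 3.05 kb.

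Gene groups of neuronal function were compared by the share of their long genes that held a peak, beside all long genes (42.1% control, 44.7% NMDA), and by density, since many are very long. Some genes are in several groups. Genes on chromosome X, which held few peaks, stayed in their groups. Il1rapl1 and Il1rapl2 in synaptic adhesion, for example, add sequence and 0 peaks, which lowers the density. Group densities on the autosomes alone were not computed. Synaptic adhesion genes (36 long genes) were hit in 24 cases in control and 25 after NMDA, with 1.65 (1.26 to 2.12) and 2.00 (1.57 to 2.52) peaks per Mb. Over all long genes, counted per gene, these densities were 1.52 and 1.75, and over the autosomal ones 1.60 and 1.84. Scaffold genes of the synapse (17) were hit in 15 and 12 cases, at 2.01 (1.27 to 3.02) and 3.15 (2.20 to 4.36) per Mb. Dlg2 gave 11 of their 36 NMDA peaks, and the scaffold gene Magi2 had 2 control and 5 NMDA peaks. Axon guidance and migration genes (34) were hit in 26 and 24 cases, at 1.77 and 1.93 per Mb, with Robo2 and Dab1 as the highest and Robo1 at 0 control and 4 NMDA peaks.

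RNA-binding and transcription factor genes (26) were hit in 12 cases in control and 22 after NMDA. Their density was 1.43 per Mb (0.908 to 2.15) in control and 2.99 (2.20 to 3.96) after NMDA. All 12 of the control genes were also hit in the NMDA list. Rbfox1 and Auts2 had 1 control and 5 NMDA peaks each, Tcf4 had 1 and 3, and Khdrbs2, an RNA-binding protein gene, had 0 and 3, while Celf2, Sox6 and Npas3 had 4 and 3 each. Kinase, phosphodiesterase and calcium signalling genes (29) were hit in 17 and 16 cases, at 1.59 and 2.18 per Mb. Ion channel genes (25) were hit in 13 and 16, at 1.57 and 1.93, with the potassium channel gene Kcnd2 at 4 and 3 and the calcium channel gene Cacna2d3 at 0 and 4. Glutamate and GABA receptor genes (19) were hit in 9 and 13, at 1.18 and 1.48, with Grm5 at 3 and 1 and Grik2 at 0 and 3. The NMDA receptor gene Grin2a held 1 peak in each list and Grin2b 0 and 1.

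Genes at common fragile sites, where very long transcribed genes tend to break under replication stress, were hit in 13 and 12 of 16 cases, at 1.44 and 1.49 per Mb. Lrp1b led them, Fhit had 4 control peaks and 1 NMDA peak, and Wwox (913 kb) and Sdk1 (974 kb) held 0 in both lists, as did Dmd on chromosome X. Long genes that also mark astrocytes (7) were hit in 6 cases in each list, at 1.80 (0.986 to 3.03) and 3.09 (1.98 to 4.60) per Mb, led by Gpc5 and Lsamp. Those of the oligodendrocyte lineage (7) were hit in 1 and 4 cases, those of microglia (2) in 1 and 2, and those of inhibitory neurons (6) in 2 and 1. Long genes in any of the 12 groups (212) had 1.58 (1.38 to 1.79) and 2.07 (1.85 to 2.31) peaks per Mb, and the 778 in none had 1.49 (1.35 to 1.65) and 1.56 (1.42 to 1.72). In the control list these intervals overlap and in the NMDA list they do not. The groups were chosen with earlier results of these data known, so this contrast is a description and no support for a difference. The genes in a group were also longer (median 582 kb against 291 kb), and the part of length in this contrast was not tested. The part of other cell types in these values was not tested.

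The 5 genes just above 200 kb (Plcxd3, Pcbp3, Pbx3, Tspear and Dnah12, 200.1 to 201.2 kb) held 1 control and 1 NMDA peak in all, and the 5 just below it (Bckdhb, Clec16a, Morc1, Sergef and Atp9b, 199.1 to 199.9 kb) held 2 and 3.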

How the data were processed

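HSF1 ChIP-seq peak lists of untreated and NMDA-treated cortical neurons were used, 1 list per condition. Per the submitters' processing notes, the tools were MACS2, SAMtools, BWA, Trimmomatic and FastQC (roles and versions not stated), and both GRCm38.p6 and mm10 are listed as builds. The sources used here do not say how the 2 replicates of a condition were combined. For each peak the authors deposited a score (10 to 1000, not analysed here), a fold enrichment (a ratio over the caller's background), a q as a −log10 value, and the summit position. The lists also hold peaks whose q is above 0.05. Gene positions, with no exon or intron, came from the RefSeq table of GRCm38.p6 (21631 protein-coding genes of the autosomes and chromosome X), and strand and internal starts from its promoter table. In 573 of 744 long genes a start lay within 1000 bp of the 5′ end so assigned, and in 0 of the 3′ end. Exon, intron and untranslated regions are not stated for any peak.

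Peaks were placed by summit with Python 3.11.15 and scipy 1.17.1, after a check on simulated summits. A peak inside several long genes counted for each, and for position it took the longest. Density is the number of peaks per Mb that meets the same rule. Shares carry exact Clopper-Pearson intervals, densities exact Poisson intervals and medians order-statistic intervals, all at 95% and for counting error only. Peaks and genes are not replicates, and no p-value was computed. Depth is unknown. Named were the 15 long genes with the most peaks, the 5 with the largest excess in each direction, the 10 highest peaks per list, the common sites, and examples from the gene groups. Genes of the 5′ stretch, of internal starts, of peaks of at least 4-fold beyond these, and of close pairs were chosen after their values were seen. The members and gene groups were chosen with earlier results of these data known. Leaving out a replicate was not possible, and the planned search of all summits for heat shock elements was not done for lack of genome sequence in this work.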

Additional observations from a re-analysis of the deposited data

How the results depend on the processing

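Of 111 planned values 91 stayed within the interval of the value reported, or within 1.5 times of it for counts, and of 25 settings added after the data were examined 24 did. The order of the lists 1 to 10 kb from the 5′ end turned, from 3.75 (control) and 3.45 (NMDA) peaks per Mb to 3.30 and 3.61 over 1000 bp from any tabulated start, and both were 2.70 with q below 0.05. With genes of 100 kb or longer, 27.0% of control and 29.1% of NMDA peaks were inside long genes, and 662 and 727 genes were hit. With genes of 400 kb or longer these were 11.1% and 12.3%, and 214 and 226 genes, of which 157 were common. With peaks of q below 0.05 alone the density was 1.01 (control) and 1.36 (NMDA) peaks per Mb, as fewer peaks were counted, and the control median fold was 2.77. With peaks at or above the median fold, the density was 0.712 and 0.990, the median folds were 2.88 and 3.01, 248 control genes were hit and 111 genes were common. With an overlap of at least 50% of both peaks, 0.644% of control and 0.546% of NMDA members were common to the lists. Within 2000 bp of an internal start the control density fell to 5.97 per Mb, as the window was wider. Depth is unknown, so its effect on the number and strength of peaks in either list was not tested. No paired analysis was possible because each list merges its replicates. For the same reason no replicate was left out.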
